A study of Mus musculus with 25 samples.

Results

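The 10 genes described here mark or steer the endothelium of lung blood vessels: the apelin receptor Aplnr and its ligand Apln, the vascular endothelial growth factor (VEGF) receptors Kdr and Flt1, the angiopoietin receptor Tek, the endothelin receptor Ednrb, the Norrin and Wnt receptor Fzd4, the secreted proteoglycan Esm1, the adhesion molecule Pecam1 and the membrane carbonic anhydrase Car4. They were chosen by name among 18193 genes that had at least 1 probe set of a single gene symbol, and where a gene had several such probe sets, the brightest one, by mean log2(signal + 16) over the 25 arrays, stood for the gene. All 10 passed the filter on low signal and were tested among 12937 genes. The arrays were Affymetrix arrays of total lung RNA, 1 per mouse, from wildtype female C57BL/6J mice of 14 to 17 weeks and 20 to 25 g.

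Mice of the groups radiation+fTyS, radiation+SEW and radiation+FTY had 25 Gy delivered once to the thorax and were injected intraperitoneally with 0.1 mg/kg of the named compound 2 times a week. Mice of the groups fTyS, SEW and FTY were injected likewise but not irradiated, those of the radiation group were irradiated without a compound, and controls were given phosphate-buffered saline. There were 3 arrays in each group and 4 in control. FTY is FTY720 (fingolimod), a sphingosine analogue that is phosphorylated in the body and then acts on receptors for sphingosine 1-phosphate. fTyS is (S)-FTY-phosphonate, in which a phosphonate replaces the phosphate of phosphorylated FTY720, and SEW is SEW-2871, an agonist of the S1pr1 receptor that is not a sphingosine analogue. The labels do not give the time from irradiation to collection, and the endothelial cells of these lungs were not separated from other cells. A lower signal can therefore come from fewer cells of a type or from less RNA per cell, and the 2 cannot be told apart.

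Capillaries make up much of the lung's endothelium, and their cells are kept in a quiet, sealed state by a few receptor systems. Tek (Tie2) is held active by angiopoietin 1 from surrounding cells, while Kdr carries most of the growth and survival signal of VEGF-A and Flt1 acts largely as a trap for it. Apelin and its receptor guide vessel growth and are part of the response of lung capillaries to injury. Fzd4 passes the Norrin signal that keeps vessel barriers tight, and Ednrb removes endothelin 1 from the lung circulation. In mouse lung, single-cell studies divide the capillary endothelium into general capillary cells, which carry Aplnr, Kit and Ptprb, and aerocytes, which carry Apln, Car4, Ednrb and high Kdr and form the thin gas exchange surface. Esm1 (endocan) is a product of activated and tip endothelial cells.

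The promoters of 4 of the genes are shown because, among compound-treated lungs, Tek and Fzd4 were lower and Apln higher with radiation. Ednrb is shown because this receptor gave the most calls across comparisons. The windows run from 250 bases before to 50 after the RefSeq gene start (GRCm38.p6), 5′ to 3′ on the gene's strand, with each ETS core (GGAA, or TTCC on the other strand) in capitals, the motif that the endothelial ETS factors Erg, Fli1 and Ets1 share.
Tek (chr4:94739039-94739338, plus strand): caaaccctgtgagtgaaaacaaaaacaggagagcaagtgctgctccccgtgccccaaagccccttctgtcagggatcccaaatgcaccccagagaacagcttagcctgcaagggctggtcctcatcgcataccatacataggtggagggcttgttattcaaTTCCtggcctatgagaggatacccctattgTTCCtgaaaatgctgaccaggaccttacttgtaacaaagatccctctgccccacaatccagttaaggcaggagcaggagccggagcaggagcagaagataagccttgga
Fzd4 (chr7:89404116-89404415, plus strand): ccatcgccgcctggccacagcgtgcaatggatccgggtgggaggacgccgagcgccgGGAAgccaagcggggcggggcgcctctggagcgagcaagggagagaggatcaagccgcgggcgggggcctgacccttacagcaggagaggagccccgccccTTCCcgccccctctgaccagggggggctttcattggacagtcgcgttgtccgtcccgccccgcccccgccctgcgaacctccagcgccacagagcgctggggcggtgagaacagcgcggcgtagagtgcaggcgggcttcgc
Apln (chrX:48034804-48035103, minus strand): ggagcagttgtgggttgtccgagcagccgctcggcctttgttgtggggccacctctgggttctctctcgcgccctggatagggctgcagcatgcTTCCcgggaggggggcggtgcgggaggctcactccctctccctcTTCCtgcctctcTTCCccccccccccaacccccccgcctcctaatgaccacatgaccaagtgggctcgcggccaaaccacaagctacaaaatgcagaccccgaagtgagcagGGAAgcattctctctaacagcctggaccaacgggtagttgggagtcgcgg
Ednrb (chr14:103843652-103843951, minus strand): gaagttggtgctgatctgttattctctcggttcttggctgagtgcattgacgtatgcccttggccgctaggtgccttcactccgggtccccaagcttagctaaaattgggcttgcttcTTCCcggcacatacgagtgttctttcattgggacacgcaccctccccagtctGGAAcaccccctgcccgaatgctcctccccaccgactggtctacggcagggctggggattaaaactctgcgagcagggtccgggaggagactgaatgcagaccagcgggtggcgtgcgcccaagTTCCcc
Of the 10 genes, 8 had a promoter in this table, all but Aplnr and Pecam1. The ETS core stood 2 times in the windows of Tek and Fzd4, 3 times in that of Ednrb, 4 times in those of Apln, Esm1, Flt1 and Car4 and 5 times in that of Kdr. All 8 windows held it, as did 96% of 32851 promoters of the same length, which had a mean of 3.52 matches. GATA (TATC on the other strand) was found in 4 of the 8, Apln, Kdr, Tek and Car4, and in 57.9% of all promoters. The hypoxia response core ACGTG, searched for on both strands, was found in Car4 but in none of the other 7, and in 19.6% of all promoters. The palindromic E-box CACGTG, which contains that core, was found in 0 of the 8 and in 7.15% of all promoters. A match is a description of the letters and not of a bound site.

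Endothelial RNA was measured well above the array medians of 118.33 to 129.58 on every array. Over the 25 arrays Cdh5 (VE-cadherin) had signals of 4749 to 6316, Cldn5 (claudin 5) of 4007 to 6219, and the further endothelial markers Esam, Icam2 and Emcn of at least 2820.4, 2108 and 579. One control array stood apart. Its mean over 15 p53 target genes was 10.24 log2 units, within the range of the 12 irradiated arrays (10.08 to 10.29) and above the other 12 unirradiated arrays (9.35 to 9.68). On the same array, control replicate 4, Apln lay above all other unirradiated arrays and Tek and Fzd4 lay below all of them. Why it stood apart was not tested. Counts of calls are given with all 4 control arrays and again without replicate 4, as are many values of single genes. Leaving it out also changes the spread of each gene that all comparisons share, narrowing it for some genes and widening it for others.

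Other cell types moved with the groups as well. All 6 neutrophil markers tested rose in radiation against control, with array means of 10.07 to 11.11 log2 units after radiation alone and 7.80 to 8.92 in controls. Against radiation alone they fell in radiation+fTyS (4 of 6, array means of 8.56 to 9.03), radiation+SEW (6 of 6, 7.72 to 9.18) and radiation+FTY lungs (2 of 6, 8.94 to 10.22). Skeletal muscle markers spanned 6.53 to 12.42 log2 units over all arrays and adipocyte markers 8.02 to 11.98. Adipocyte means did not overlap between SEW (10.11 to 11.98) and control lungs (8.33 to 10.07) or between radiation+FTY (9.98 to 11.60) and radiation lungs (8.77 to 9.68). Markers of general capillary cells other than the genes described here had group means of 11.41 to 11.55 log2 units in the 3 irradiated compound groups and of 11.75 to 11.89 in the other 5 groups. The part of the neutrophil and capillary shifts in the results was not tested, while calls that fits with the muscle and adipocyte means as covariates changed are named with the results or under the processing alternatives.

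**Figure D1:**
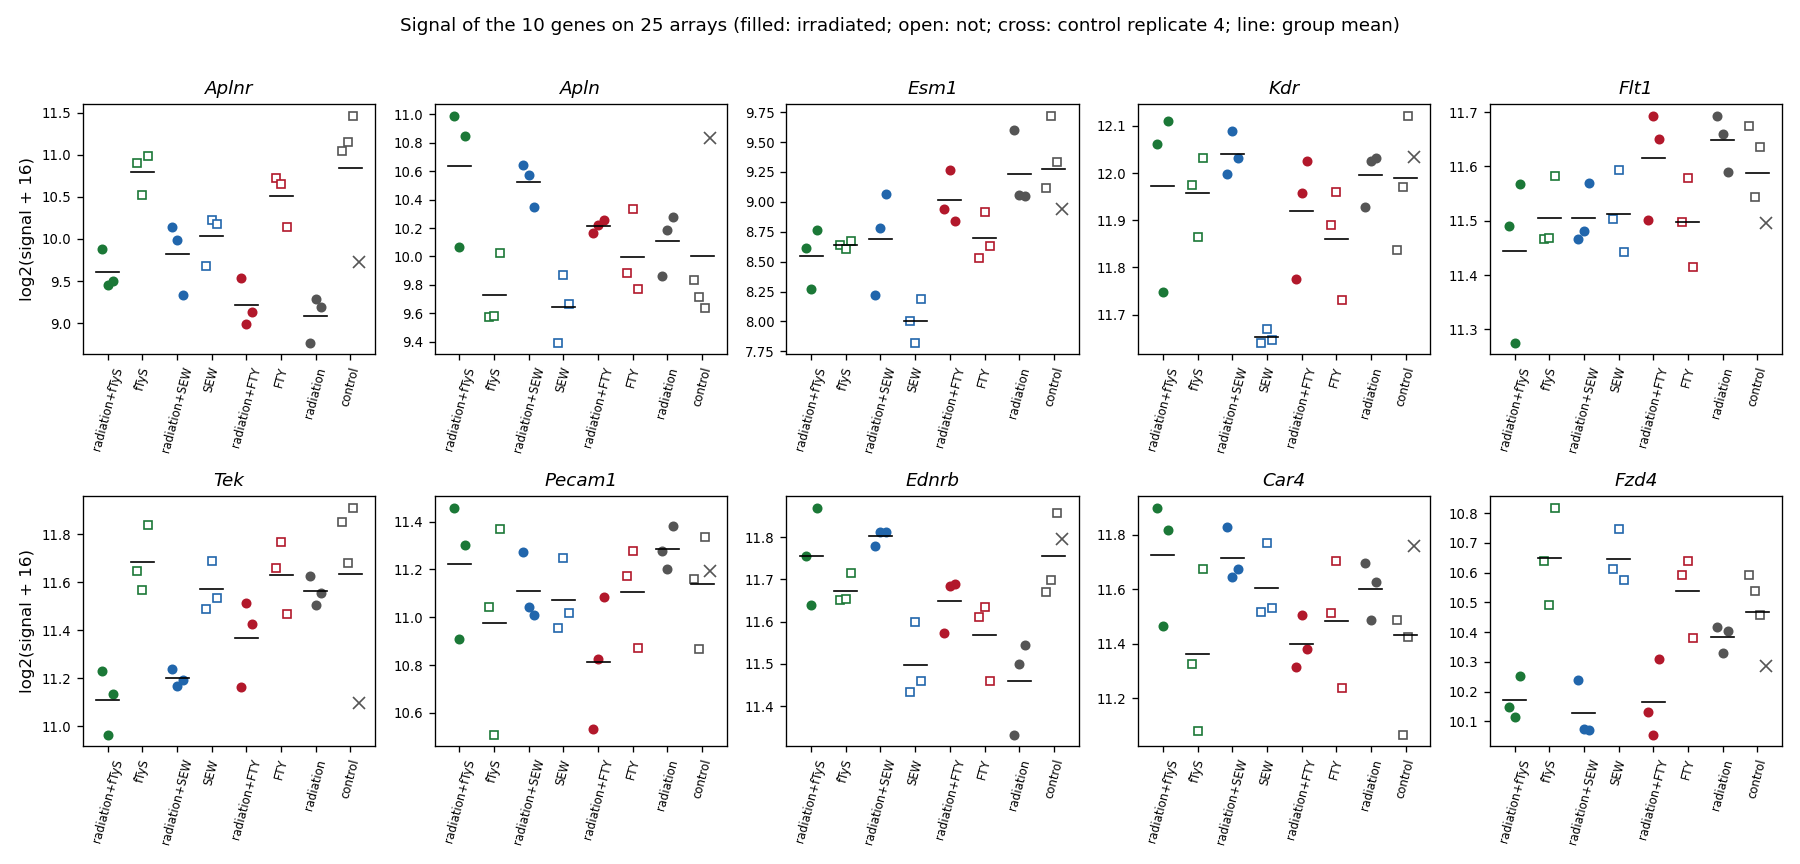
Signal of each gene as log2(signal + 16) on the vertical axis for every array, by group on the horizontal axis; filled points are irradiated lungs, open squares are unirradiated lungs, the cross is control replicate 4 and the lines are group means. Fzd4 lay lower on all 9 arrays of irradiated, compound-treated lungs than on the 9 arrays of the same compounds without radiation, and control replicate 4 lay among the irradiated arrays for Aplnr, Apln, Tek and Fzd4.

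Calls were made with limma at an adjusted p of at most 0.05, and the percentage of the 12937 genes called in the same comparison is given as the background of each count. In radiation against control, 2 of the 10 genes fell and 0 rose (4.4% of all genes called; 2 and 6.83% without control replicate 4). SEW alone lowered 3 against control (14.6%; 4 and 13.4% without that array), whereas fTyS alone and FTY alone changed 0 in the limma test (0.178% and 2.73%; 0 and 0.526%, 0 and 2.7% without it), with 1 and 2 of the 10 at an unadjusted p under 0.05. Added to radiation, fTyS raised 1 gene (0.858%), SEW raised 1 (2.48%) and FTY changed 0 (3.02%, 3 at an unadjusted p under 0.05). Without control replicate 4 these counts were 1 higher and 1 lower, 1 higher, and 0 (backgrounds 1.1%, 2.7% and 3.05%).

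Set against the same compound without radiation, irradiated lungs had 1 lower gene under fTyS (0.456%), 4 higher and 1 lower under SEW (17.7%) and 2 lower under FTY (14.1%). Without control replicate 4 these became 1 higher and 3 lower (1.22%), 4 higher and 2 lower (18.2%) and 2 lower (14.8%). The mean of the 3 radiation differences under the compounds, a contrast of 9 irradiated with 9 unirradiated arrays that uses neither control nor radiation-alone arrays and was added after the data were seen, called 6 of the 10, 3 higher and 3 lower, where 26.4% of all genes were called (26.6% without control replicate 4). The median of the 10 genes in that contrast was 0.073 log2 units, against 0.029 for all genes, so rises and falls offset each other. The 2 of 10 in radiation+FTY against FTY are near their background of 14.1%.

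Aplnr, the G protein-coupled receptor for apelin, had the largest fall of the 10 in radiation against control. Its signals were 419.7, 607 and 566 in radiation lungs, against 2100.3, 2254, 2813 and 830.4 in controls. The groups did not overlap, and control replicate 4, the last of these, lay closer to the irradiated arrays than to the other controls. The log2 fold change was -1.77 ± 0.30 (SE; adjusted p = 0.00148, limma), and -2.14 without replicate 4 (adjusted p = 2.39e-05). The second Aplnr probe set, 1423037_at, gave -1.53 (adjusted p = 0.00289) and correlated with the first at r = 0.99 over the 25 arrays.

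In compound-treated lungs Aplnr signals were 725, 493 and 547 after radiation with FTY, against 1672, 1597 and 1115 with FTY alone. The groups did not overlap, and Aplnr fell by 1.29 on the log2 scale (SE 0.32, adjusted p = 0.0136, limma), a call lost without FTY replicate 1, FTY replicate 2 or radiation+FTY replicate 2 (adjusted p of 0.0513, 0.0522 and 0.0543). Under fTyS the signals were 925, 685 and 709.7 with radiation and 1894, 1450.4 and 2013 without, again with no overlap. This difference of -1.19 ± 0.32 did not pass with all arrays (adjusted p = 0.102), and it passed without control replicate 4 (0.0123) and in the fit with replicate number as a block (0.0224). Only control replicate 4 has the number 4, so here and below the block fit also sets that array aside. It is therefore no separate support beside the fit without that array.

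Under SEW, Aplnr had signals of 1112, 999 and 627 with radiation, against 804, 1182 and 1146 without. The 2 groups overlapped and the log2 difference of -0.21 ± 0.32 did not pass (adjusted p = 0.704). Relative to control, SEW alone gave -0.82 with all arrays (adjusted p = 0.0735) and -1.19 without control replicate 4 (0.00331), so in the main fit leaving out that array decided the call. With all arrays it also passed in the fits with array weights or an endothelial covariate. The radiation difference itself was smaller under SEW than without a compound, with an interaction of 1.56 ± 0.44 (adjusted p = 0.0249), which is a rise relative to the sum of the separate effects. It was lost without control replicate 3, SEW replicate 1, radiation replicate 1, radiation+SEW replicate 1 or radiation+SEW replicate 2, with adjusted p up to 0.0696. The second Aplnr probe set gave 1.19 and did not pass here (0.0602), and without control replicate 4 the representative gave 1.93 (0.00154). By mean level Aplnr ran from radiation, the lowest, through radiation+FTY, radiation+fTyS, radiation+SEW, SEW, FTY and fTyS to control, and every neighbouring pair in that order overlapped, except that without control replicate 4 all 3 controls lay above the fTyS lungs.

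Apln encodes apelin, the peptide ligand of Aplnr, and moved the other way. Under SEW its signals were 1583, 1508 and 1285 with radiation, against 656, 917 and 797 without, so the lowest irradiated array lay above the highest unirradiated one. Apln rose by 0.88 ± 0.26 on the log2 scale (adjusted p = 0.0249), and without any 1 of SEW replicates 1 and 3 or the 3 radiation+SEW arrays the adjusted p ran up to 0.11. Under fTyS the signals were 2019, 1056 and 1828 with radiation and 746, 749 and 1028 without. The difference of 0.91 ± 0.26 gave an adjusted p of 0.124 with all arrays, 0.0303 without control replicate 4, 0.0396 without radiation+fTyS replicate 2 and 0.0478 with the replicate block.

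Under FTY, Apln signals of 1134, 1179 and 1209 with radiation overlapped those of 931, 1275 and 858 without, at a log2 difference of 0.22 ± 0.26 (adjusted p = 0.619). After radiation alone they were 915, 1149 and 1227, against 897, 824, 780.1 and 1808 in controls. The 3 irradiated arrays lay above the 3 other controls and below control replicate 4, and the log2 fold change was 0.10 with that array (95% interval -0.41 to 0.62) and 0.38 without it (adjusted p = 0.894 and 0.305). Over the 3 compounds Apln rose by 0.67 ± 0.15 (adjusted p = 0.00309) and Aplnr fell by 0.90 (SE 0.19, adjusted p = 0.00171), and neither call was lost when any single array was left out. By mean level Apln ran from SEW, the lowest, through fTyS, FTY, control, radiation, radiation+FTY and radiation+SEW to radiation+fTyS, and of the neighbours in that order only radiation+SEW and radiation+FTY lungs did not overlap.

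Tek, the Tie2 receptor for angiopoietins, was lower in irradiated lungs that had received a compound. Its signals were 2389, 1984 and 2231 in radiation+fTyS lungs, against 3195, 3021 and 3644 in fTyS lungs. They were 2402, 2287 and 2323 in radiation+SEW lungs, against 2863, 3284 and 2949 in SEW lungs. In both pairs every irradiated array lay below every unirradiated one. In radiation+FTY lungs they were 2281, 2913 and 2736, against 3222, 3472 and 2819 in FTY lungs, with overlap.

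The separate differences for Tek did not pass with all arrays, at -0.57 ± 0.15 under fTyS, -0.37 ± 0.15 under SEW and -0.26 ± 0.15 under FTY (adjusted p of 0.0863, 0.0881 and 0.249). Without control replicate 4, which narrows the shared spread, those under fTyS and SEW passed (0.00496 and 0.0132), and with the replicate block the one under fTyS did (0.0113). With the muscle and adipocyte covariates the one under SEW passed (0.0433). Over the 3 compounds Tek fell by 0.40 (SE 0.085, adjusted p = 0.00193), with adjusted p of at most 0.0051 when single arrays were left out. Radiation alone gave signals of 3144, 2896 and 2993, against 3679, 3264, 3837 and 2178 in controls, and a log2 fold change of -0.073 with and -0.25 without control replicate 4 (adjusted p = 0.866 and 0.142). Set against radiation alone, radiation+fTyS gave -0.45 ± 0.15, with an adjusted p of 0.168 with all arrays, 0.0296 without control replicate 4 and 0.0484 with the replicate block.

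Fzd4, the frizzled receptor for Norrin, which maintains the endothelial barrier, gave the clearest separation of irradiated from unirradiated compound-treated lungs. Its signals were 1118, 1093 and 1204 in radiation+fTyS lungs, against 1579, 1423 and 1790.1 in fTyS lungs. They were 1192, 1061 and 1059.7 in radiation+SEW lungs, against 1549.6, 1704 and 1511 in SEW lungs. They were 1106, 1048 and 1253 in radiation+FTY lungs, against 1529, 1578 and 1318 in FTY lungs. All 9 irradiated arrays lay below all 9 unirradiated ones.

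Fzd4 fell under each compound, by 0.48 under fTyS, 0.52 under SEW and 0.37 under FTY on the log2 scale (SE 0.093, adjusted p = 0.034, 0.00114 and 0.0131). The call under fTyS was lost without SEW replicate 3 or any 1 of the 6 arrays compared (adjusted p up to 0.145), and the one under FTY without FTY replicate 2 or radiation+FTY replicate 2 (0.0645 and 0.0621). Both calls were also lost with the mean of all probe sets and in the fit of only the arrays compared. The call under FTY was lost as well with a mean of endothelial genes as covariate. Over the 3 compounds the fall was 0.46 (SE 0.054, adjusted p = 1.66e-05). Radiation alone gave signals of 1351, 1272 and 1338, against 1528, 1469.8, 1391 and 1234 in controls, a log2 fold change of -0.086 (95% interval -0.27 to 0.10), or -0.15 without control replicate 4 (adjusted p = 0.379). These radiation-alone lungs lay above all 9 lungs given radiation and a compound. The interaction with SEW was -0.43 ± 0.13 (adjusted p = 0.0285, 0.0495 without control replicate 4), and it was lost without SEW replicate 2, radiation replicate 1 or 3, or radiation+SEW replicate 2 or 3 (up to 0.0762).

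The direction for Fzd4 rests on its representative probe set, 1434756_at. A second probe set, 1449416_at, with a mean of 6.65 log2 units near the filter value of 6.49, fell over the 3 compounds by 0.25 (adjusted p = 0.0236) and under SEW by 0.60 (0.00595), with 0.085 under fTyS. The other one, 1419301_at, had a mean of 8.98 log2 units, correlated with the representative at r = 0.273 over the 25 arrays and gave -0.0021 over the 3 compounds (0.99), with -0.38 under fTyS, 0.12 under SEW and 0.25 under FTY, none past the threshold (0.233, 0.59 and 0.251). It passed with a positive sign in the interaction with FTY, 0.69 (0.0354), where the representative gave -0.29 (0.175).

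**Figure D2:**
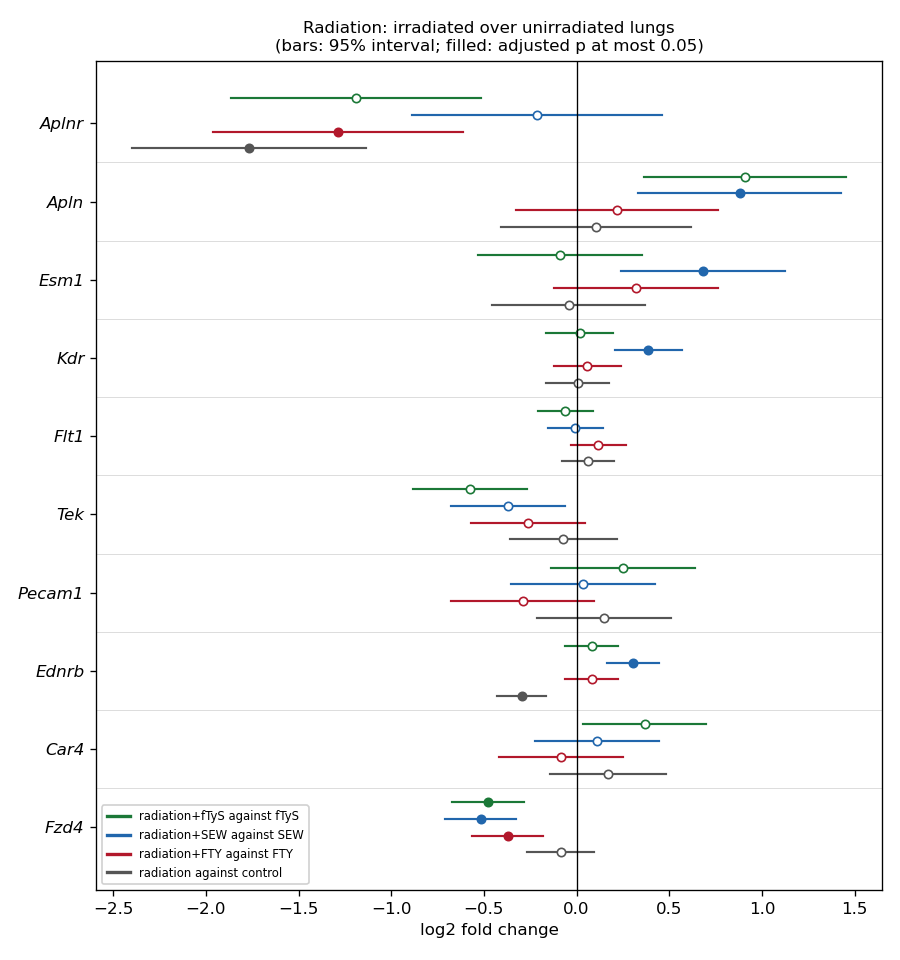
Log2 fold change (horizontal axis) of irradiated over unirradiated lungs for each gene, separately under fTyS, SEW, FTY and no compound (radiation against control). Bars are 95% confidence intervals of the limma fit on all 25 arrays and filled points passed the test. Fzd4 passed under each of the 3 compounds, Aplnr passed under FTY and without a compound, and Flt1, Pecam1 and Car4 passed in none of the 4.

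Across arrays, Tek and Fzd4 went together and against Apln. Over the 25 arrays Tek and Fzd4 correlated at r = 0.795, Apln and Fzd4 at -0.611 and Apln and Tek at -0.627, and these arrays share the treatment groups. Over the 8 group means without control replicate 4 the values were 0.857, -0.927 and -0.916. Within groups, after subtracting each group's mean and without control replicate 4, Apln correlated at 0.613 with Tek and at 0.537 with Fzd4. With all arrays these within-group values were -0.244 and 0.059, so they depended on leaving out that array. Without it, the opposite movement was a difference between groups. Within a group, an array high in Apln then tended to be high in Tek and Fzd4. Aplnr and Apln, receptor and ligand, correlated at r = -0.399 over the 25 arrays. Their r was -0.605 over the 8 group means without control replicate 4. Within groups it was -0.228 with all arrays and 0.546 without that array.

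**Figure D3:**
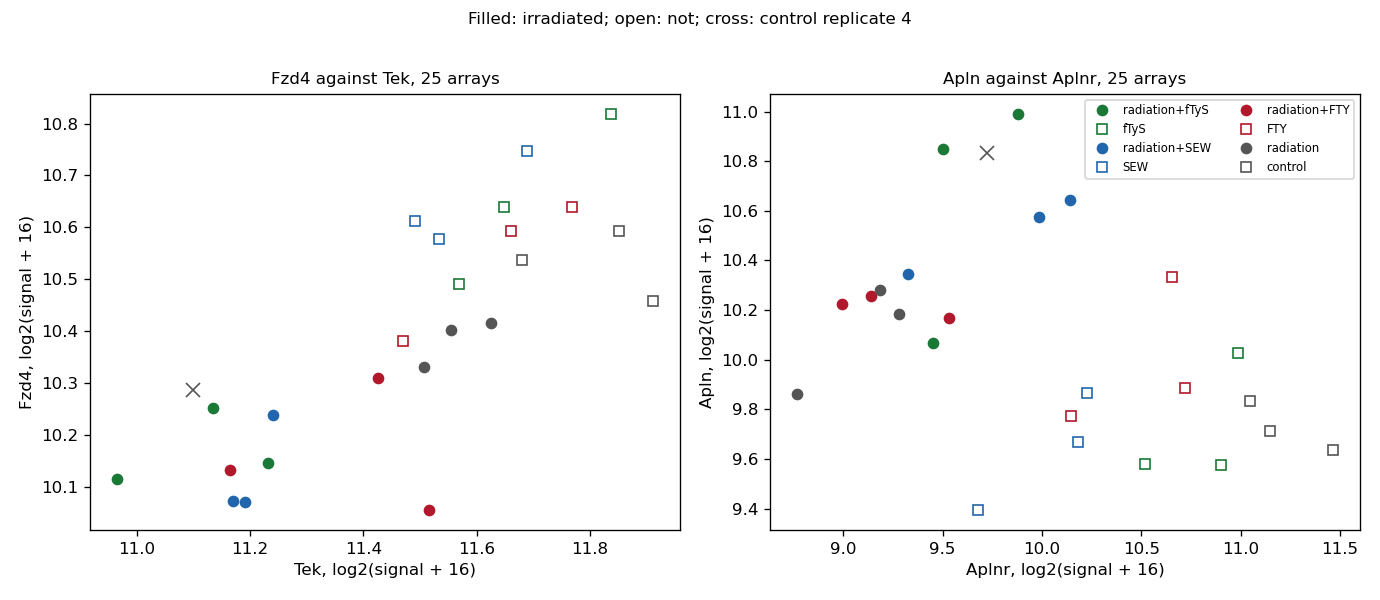
Fzd4 against Tek (left) and Apln against Aplnr (right), both axes as log2(signal + 16), 1 point per array, with filled points for irradiated lungs, open squares for unirradiated lungs and a cross for control replicate 4. Irradiated, compound-treated lungs lay lower in Fzd4 than every unirradiated lung but control replicate 4, and control replicate 4 lay with the irradiated arrays in both panels.

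Ednrb, the endothelin B receptor that clears endothelin 1, was lower after radiation alone than in controls, and higher when fTyS or SEW was given with radiation than after radiation alone. Its signals were 2563, 2878 and 2974 in radiation lungs, against 3241, 3306, 3694 and 3539 in controls, without overlap. The log2 fold change was -0.30 ± 0.064 (adjusted p = 0.00975, 0.0175 without control replicate 4 and 0.0946 without radiation replicate 1). This is a ratio of 0.815 and small beside that of Aplnr, 0.294.

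When a compound was given with radiation, Ednrb signals were 3443, 3174 and 3726 with fTyS, 3499, 3582 and 3581 with SEW and 3030.5, 3275 and 3287 with FTY. All 9 lay above the highest radiation-alone array, 2974. Ednrb rose by 0.30 ± 0.068 with fTyS and 0.34 ± 0.068 with SEW (adjusted p = 0.0444 and 0.0134), while the 0.19 ± 0.068 with FTY did not pass (0.11). The call with fTyS was lost when any 1 of 16 of the 25 arrays was left out (adjusted p up to 0.233), and the call with SEW without radiation replicate 1 or radiation+SEW replicate 3 (0.0917 and 0.0563). These 3 comparisons share the 3 radiation-alone arrays, whose mean of neutrophil markers was the highest of the 8 groups.

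Without radiation, Ednrb signals were 3201, 3207 and 3345 with fTyS, 2749, 3087 and 2801 with SEW and 3113, 3162 and 2800.1 with FTY. SEW lowered Ednrb against control by 0.26 (SE 0.064, adjusted p = 0.0125), a call lost without control replicate 3, SEW replicate 1 or SEW replicate 3 (0.0502, 0.0798 and 0.0573) and with the muscle and adipocyte covariates (0.0609). It was -0.24 (0.0271) when control replicate 4 was left out. The other 2 probe sets of the gene did not pass in this comparison, at -0.27 for 1423594_a_at and -0.042 for 1426314_at (0.234 and 0.886), nor did the mean of all 3 (0.288). Between radiation+SEW and SEW lungs Ednrb rose by 0.30 ± 0.068 (adjusted p = 0.00536), the opposite sign to radiation against control.

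The differences between these radiation differences were tested as interactions. Across the 10 genes, 1 passed for fTyS (1.35% of all genes; 0 and 1.66% without control replicate 4), 4 for SEW (13.9%; 3 and 13.7%) and 1 for FTY (6.84%; 1 and 6.41%). Ednrb passed in all 3, at 0.38 ± 0.093, 0.60 ± 0.093 and 0.38 ± 0.093 (adjusted p = 0.049, 0.000971 and 0.0217), and the 3 share the radiation and control arrays. The one with fTyS had adjusted p of 0.0638 without control replicate 4, 0.0616 with the replicate block and 0.0511 with the muscle and adipocyte covariates, and was lost in 20 of the 25 fits that left out an array. The one with FTY was lost without FTY replicate 3, radiation replicate 1 or radiation+FTY replicate 2 (up to 0.0588). The one with SEW held in all 25, with adjusted p of at most 0.00414. Of the other probe sets, 1423594_a_at passed with fTyS and SEW, at 1.32 and 0.95 (0.0114 and 0.00993), but not with FTY, at 0.60 (0.105). Probe set 1426314_at passed in none, at 0.89, 0.32 and -0.10 (0.0777, 0.426 and 0.856).

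Ednrb has 2 further probe sets, with lower means of 9.09 and 8.27 log2 units and correlations of r = 0.534 and 0.418 with the representative, 1437347_at. The first, 1423594_a_at, had a larger fall in radiation against control, -1.06 (adjusted p = 0.000421), and larger rises on adding fTyS, 1.02 (0.00535), and SEW, 0.68 (0.0325). The second, 1426314_at, gave -0.40, 0.63 and 0.28 for the same comparisons, with none passing (0.227, 0.115 and 0.458). All 3 probe sets had the same sign in these 3 comparisons. They did not for radiation+SEW against SEW, where the further probe sets gave -0.11 and -0.078 (0.689 and 0.815), or over the 3 compounds, where the representative rose by 0.16 ± 0.039 (0.00683) and the others gave -0.10 and -0.027. Both further probe sets were higher in radiation+fTyS than in radiation+FTY lungs, by 0.96 and 0.85 (adjusted p = 0.00862 and 0.0191), where the representative gave 0.11 (0.395).

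**Figure D4:**
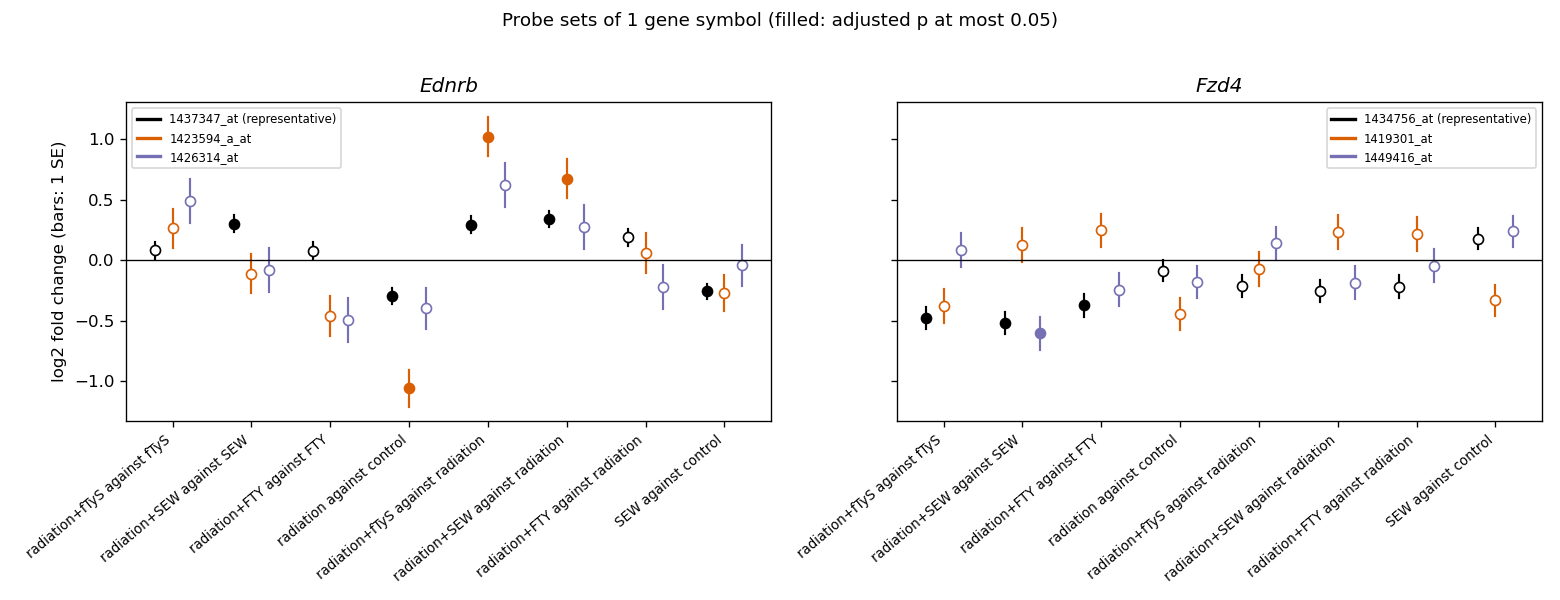
Log2 fold change (vertical axis, bars 1 SE) of each probe set of Ednrb and Fzd4 in 8 comparisons; filled points passed the test. The 3 Ednrb probe sets share the fall in radiation against control and the rises on adding fTyS or SEW, and the Fzd4 probe set 1419301_at departs from the representative in the comparisons of irradiated with unirradiated lungs under SEW and FTY.

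Esm1 and Kdr were lowered by SEW alone. Esm1, whose product endocan is secreted by VEGF-stimulated endothelium, had signals of 241, 210.3 and 276 in SEW lungs, against 538, 828, 629 and 475 in controls. The highest SEW array was below the lowest control, and Esm1 fell by 1.27 on the log2 scale (SE 0.20, adjusted p = 0.00093), with adjusted p of at most 0.00937 when any single array was left out. The signals were 382, 373 and 392 with fTyS and 355, 468 and 381 with FTY, also below all controls, at -0.64 ± 0.20 and -0.58 ± 0.20 (adjusted p = 0.154 and 0.121), which did not pass. Without control replicate 4 the log2 fold changes were -1.38 for SEW, -0.75 for fTyS and -0.69 for FTY.

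Kdr, the main signalling receptor for VEGF-A, had signals of 3177, 3241 and 3191 in SEW lungs, against 3643, 3994, 4440.3 and 4176 in controls. The SEW arrays lay close together and below every array of the other 7 groups, whose lowest Kdr signal was 3385. Kdr fell by 0.34 (SE 0.081, adjusted p = 0.0103), with 0.0505 without SEW replicate 1 and 0.0533 with the muscle and adipocyte covariates, in lungs whose adipocyte marker means were above those of all controls. It was -0.32 (0.0221) when control replicate 4 was left out. Kdr signals were 4009.7, 3711 and 4169.6 in fTyS lungs and 3780.2, 3968 and 3385 in FTY lungs.

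With radiation, Kdr under SEW lay among the other groups. It had signals of 4074, 4342 and 4171 in radiation+SEW lungs, a rise of 0.39 ± 0.087 over SEW lungs (adjusted p = 0.00536). Esm1 had signals of 282, 423 and 519.8 in radiation+SEW lungs, 2 of them still below every control and every radiation-alone array, and a rise over SEW lungs of 0.68 ± 0.21 (0.0308) that was lost without SEW replicate 1, SEW replicate 2, radiation+SEW replicate 2 or radiation+SEW replicate 3 (up to 0.182) and with the muscle and adipocyte covariates (0.0523). Radiation alone gave Kdr signals of 3879, 4153 and 4174 and Esm1 signals of 760.0, 516 and 514, at 0.0048 and -0.043 against control (adjusted p = 0.989 and 0.952), and 0.019 and -0.16 without control replicate 4 (0.945 and 0.756). The interaction of radiation with SEW was 0.38 ± 0.12 for Kdr (0.0371, and 0.0572 without control replicate 4) and 0.72 ± 0.29 for Esm1 (0.101). The Kdr interaction was lost in 10 of the 25 fits that left out an array, with adjusted p up to 0.0933.

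Kdr also rose over the 3 compounds, by 0.15 ± 0.05 (0.0284), with values of 0.017, 0.39 and 0.059 under fTyS, SEW and FTY, the largest being under SEW. It was lost in 7 fits that left out an array (up to 0.0649), and with the muscle and adipocyte covariates (0.0591). Esm1 gave 0.30 ± 0.12 over the 3 compounds, short of the threshold (0.0737). With radiation, Esm1 signals were 375, 292 and 418 under fTyS and 474, 599.9 and 442 under FTY, and Kdr signals were 4261, 3422 and 4403 and 3491, 3959 and 4152. SEW alone thus had the lowest level of both genes among the 8 groups, with no array overlapping the next group in either.

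**Figure D5:**
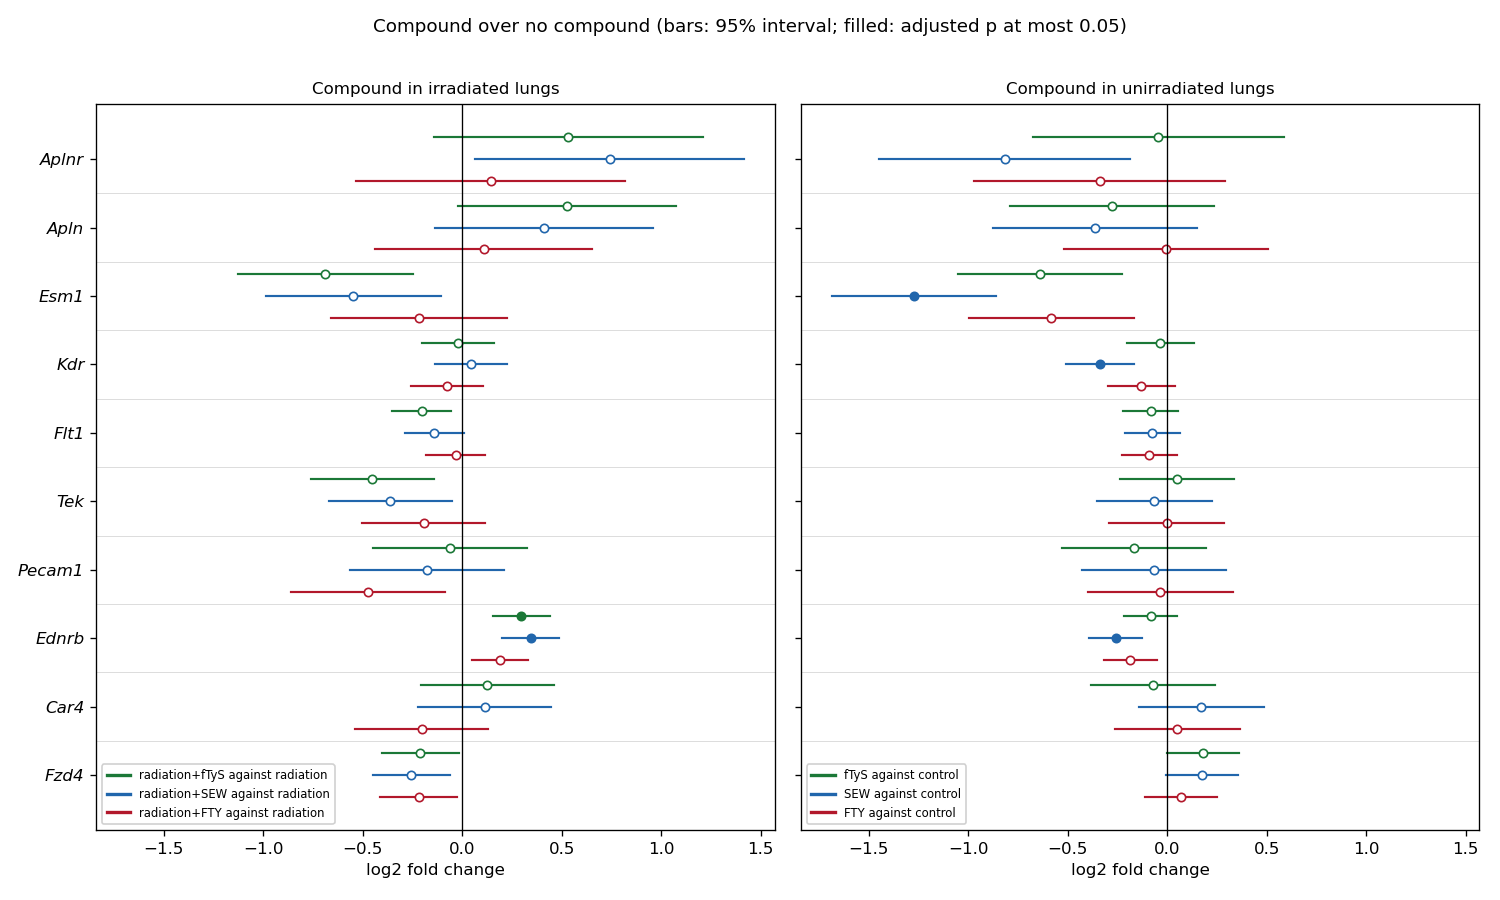
Log2 fold change (horizontal axis) of each compound over no compound, in irradiated lungs (left) and unirradiated lungs (right), with 95% confidence intervals; filled points passed the test. Esm1, Kdr and Ednrb were lower with SEW alone, and Ednrb was higher when fTyS or SEW was added to radiation.

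Flt1, the decoy VEGF receptor, and the capillary genes Pecam1 and Car4 passed the test in none of the 19 comparisons by their representative probe sets, nor over the 3 compounds. Flt1 signals ranged from 2463 to 3296 over the 25 arrays, and its log2 fold change in radiation against control was 0.06 (95% interval -0.079 to 0.20). Pecam1 (CD31), an adhesion molecule of endothelial cells, platelets and leukocytes, ranged from 1441 to 2798 and gave 0.15 (-0.22 to 0.51). Car4, an enzyme on the surface of aerocytes, ranged from 2129 to 3806 and gave 0.17 (-0.14 to 0.48). The log2 fold changes without control replicate 4 were 0.03, 0.16 and 0.28 for Flt1, Pecam1 and Car4 (adjusted p = 0.877, 0.71 and 0.317), that of Car4 moving most. With all arrays, none of these 3 intervals reaches down to the fall of Ednrb, and those of Pecam1 and Car4 allow rises of up to 0.51 and 0.48 log2 units. In all 3 genes every group overlapped its neighbours in the order of mean levels, with Pecam1 lowest in radiation+FTY lungs, Car4 in fTyS lungs and Flt1 in radiation+fTyS lungs.

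Other probe sets of these genes did pass in places. Over the 3 compounds, Flt1 probe sets 1451756_at and 1454037_a_at fell by 0.25 and 0.31 (adjusted p = 0.0246 and 0.0278), and 1454037_a_at fell by 0.55 under FTY (0.0372), while the representative gave 0.016 and 0.12. Flt1 is known to be made as a membrane receptor and as a shorter secreted form. The Car4 probe set 1418094_s_at rose by 0.49 under SEW (0.0229) and 0.35 over the 3 compounds (0.00373), where the representative gave 0.11 and 0.13.

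The 2 capillary marker lists, from which the 10 genes were left out, moved as follows over the 3 compounds. All 5 general capillary genes tested fell, with a list median of -0.26, and 2 of 4 aerocyte genes rose and 0 fell, with a median of 0.21, where 26.4% of all genes were called and the median of all genes was 0.029. In radiation against control 0 of the 5 and 0 of the 4 passed in the limma test. The 4 genes of the 10 that single-cell work places in aerocytes, Apln, Ednrb, Kdr and Car4, gave 0.67, 0.16, 0.15 and 0.13 over the 3 compounds, and Aplnr, placed in general capillary cells, gave -0.90. Of these, Car4 did not pass in the limma test (adjusted p = 0.325), while its other probe set rose by 0.35 (0.00373). The further Ednrb probe sets gave -0.10 and -0.027, and the call of Kdr was lost in 7 fits that left out an array. The 5 endothelial identity genes had array means of 11.24 to 11.69 log2 units in the 12 irradiated arrays and of 11.32 to 11.84 in the 13 unirradiated ones.

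The 3 compounds were compared with each other at the same dose, in 6 pairs, and 0 of the 10 genes passed in any pair in the limma test, adjusted over all genes. Without radiation the backgrounds were 1.55% for fTyS against SEW, 0% for fTyS against FTY and 0% for FTY against SEW, and 4, 0 and 2 of the 10 had an unadjusted p under 0.05. With radiation they were 0% for radiation+fTyS against radiation+SEW, 3.95% for radiation+fTyS against radiation+FTY and 0% for radiation+FTY against radiation+SEW, with 0, 3 and 1. For the backgrounds of 0, between 769 and 1414 of the 12937 genes had an unadjusted p under 0.05.

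The fTyS phosphonate and its parent FTY720 were compared in unirradiated lungs, where 0 of the 10 genes passed and the log2 differences ran from -0.27 (Apln, 95% interval -0.82 to 0.28) to 0.29 (Aplnr, -0.38 to 0.97). These intervals do not show that the 2 act alike. In irradiated lungs fTyS gave less Esm1 than FTY, -0.47 (-0.91 to -0.026, adjusted p = 0.213), and more Pecam1, 0.41 (0.022 to 0.80, 0.214), neither past the threshold. Against SEW, which is not a sphingosine analogue, fTyS lungs had 0.30 more Kdr on the log2 scale (0.12 to 0.49, adjusted p = 0.0716) and 0.63 more Esm1 (0.19 to 1.07, 0.114), and FTY lungs 0.21 more Kdr (0.027 to 0.39, 0.483) and 0.69 more Esm1 (0.25 to 1.13, 0.408). In irradiated lungs the widest interval between fTyS and SEW was that of Aplnr, -0.21 (-0.88 to 0.47). Between radiation+FTY and radiation+SEW lungs the differences ran from -0.60 for Aplnr (-1.27 to 0.077) to 0.33 for Esm1 (-0.11 to 0.77).

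The partners of these receptors were read from 9 lists of 83 genes, of which 79 were on the array and 74 were tested. In radiation against control 1 rose and 2 fell, a share not above the 4.4% of all genes called. Pgf, placenta growth factor, a ligand of Flt1, rose by 0.48 (adjusted p = 0.0364), Angpt2, which counters angiopoietin 1 at Tek, fell by 0.53 (0.0111), and Mme, a protease that degrades endothelin 1, fell by 0.33 (0.0226). Without control replicate 4 Cd34 and Icam1 rose as well, by 0.45 and 0.33 (0.00104 and 0.0479).

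SEW alone changed 9 of the 74, with 7 lower and 2 higher, a share not above the 14.6% of all genes called. In the Notch list 3 of 11 fell, the tip-cell ligand Dll4 by 0.65, and the target genes Hey2 by 0.46 and Hes1 by 0.40 (adjusted p = 0.00744, 0.00671 and 0.0154). In the VEGF list the co-receptors Nrp2 and Nrp1 fell by 0.46 and 0.18 (0.0155 and 0.0254), beside the fall of Kdr. Angpt2 fell by 0.61 (0.00292), while Edn1, which encodes endothelin 1, the ligand of Ednrb, rose by 0.66 (0.0397) as Ednrb fell. Without control replicate 4 the counts were again 7 lower and 2 higher, and Nrp1 and Edn1 were not among them. FTY alone lowered Hey2 and the venous factor Nr2f2, by 0.53 and 0.32 (0.0107 and 0.0241), where 2.73% of all genes were called, so 2 of 74 is the background share. fTyS alone changed 0 of the 74 in the limma test (0.178% of all genes called), with 1, Hey1, lower without control replicate 4.

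In irradiated lungs, against radiation alone, the test called 0 of the 74 with fTyS (0.858% of all genes called), 0 with SEW (2.48%) and 1 with FTY (3.02%), the adhesion molecule Mcam, which fell by 0.43 (0.0401). These counts are at or below the backgrounds. Over the 3 compounds, irradiated against unirradiated lungs had 10 higher and 15 lower of the 74, where 26.4% of all genes were called. Those with the smallest p were Cd34, Hey2, Pgf and Nrp2, higher by 0.52, 0.46, 0.54 and 0.47, Sox17, an endothelial Wnt-responsive factor, lower by 0.58, and the Notch target Heyl, higher by 0.38 (adjusted p between 1.66e-05 and 0.000527). Around Tek, Ptprb, the phosphatase that holds Tek inactive and also a general capillary marker, fell by 0.26 (0.000732) and its ligand Angpt1 rose by 0.32 (0.000907). Around Fzd4, its co-receptor component Tspan12 and the Wnt effector Lef1 fell by 0.19 and 0.27 (0.0142 and 0.0193), and Edn1 fell by 0.44 (0.0175).

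Under the single compounds, radiation+SEW against SEW had 7 higher and 3 lower of the 74, a share below the 17.7% of all genes called. Cd34, Nrp2, Heyl, Pgf and Hey2 rose by 0.72, 0.75, 0.59, 0.63 and 0.41, and Edn1 fell by 0.84 (adjusted p between 0.00029 and 0.0146), opposite to its rise with SEW alone. Angpt2 rose as well, by 0.44 (0.0207). Radiation+FTY against FTY had 4 higher and 10 lower (14.1% of all genes called). Hey2, Pgf and Cd34 rose by 0.60, 0.70 and 0.51, and Tspan12, Emcn and Sox17 fell by 0.43, 0.76 and 0.76 (between 0.00201 and 0.00707). Radiation+fTyS against fTyS had 0 of the 74 in the limma test (0.456% of all genes called).

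The interaction tests called 7 of the 74 with SEW, 5 with FTY and 1 with fTyS (13.9%, 6.84% and 1.35% of all genes). None of these shares exceeds its background. With SEW the genes of smallest p were Angpt2, Nrp2, Hes1 and Hey2 at 0.97, 0.82, 0.61 and 0.52, and Edn1 and Vegfc at -1.16 and -0.89 (adjusted p between 0.00192 and 0.0257). With FTY they were Hey2 and Nr2f2 at 0.70 and 0.36, and Vegfc, Emcn and the Notch ligand Dll1 at -1.01, -0.83 and -1.23 (between 0.0104 and 0.0464), and with fTyS the one gene was Mme at 0.60 (0.0216). Between compounds, Angpt2 was higher in fTyS than in SEW lungs by 0.58 (0.0254) and Tspan12 higher in radiation+fTyS than in radiation+FTY lungs by 0.47 (0.0157), and the other 4 pairs had 0 of the 74.

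The genes whose pattern over the 25 arrays was most like each of the 10 were the 3 with the highest Pearson r among the 12937 tested. Tek went with Arhgef15, Ptprb and Kit (r = 0.926, 0.925 and 0.921), Aplnr with Ociad2, Gprin3 and Cdh16 (0.918, 0.889 and 0.875) and Fzd4 with Pim3, Zc3h13 and Clec12b (0.891, 0.876 and 0.869). Apln went with Aard, Ccdc184 and Clstn2 (0.895, 0.883 and 0.847), Kdr with Tmem178, Ptpre and Myo6 (0.875, 0.867 and 0.858) and Esm1 with Dazap2, Myct1 and Gxylt1 (0.823, 0.82 and 0.802). Ednrb went with A330076H08Rik, Adcy8 and Limd1 (0.866, 0.846 and 0.845), Flt1 with Preb, Plvap and Ace (0.887, 0.848 and 0.846), Pecam1 with Tdrd7, Hopx and Garre1 (0.902, 0.888 and 0.862) and Car4 with Upp1, Igfbp7 and Pkn3 (0.837, 0.831 and 0.831).

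Among the 10 genes themselves, arrays of 1 group varied together in some pairs of genes and not in others. After group means were subtracted, Kdr and Ednrb correlated at r = 0.831 and Pecam1 and Car4 at 0.811 with all arrays. Tek and Car4 gave 0.166 with all arrays and 0.896 without control replicate 4. Esm1 gave -0.213 with Apln and -0.132 with Car4, again with all arrays. These arrays differ in muscle and adipocyte marker levels, and the part of these levels in the correlations was not tested. Over all 25 arrays Esm1 and Flt1 correlated at r = 0.568.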

How the data were processed

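The authors deposited linear signal intensities; per the submitters' processing notes they were made with GCOS, the Affymetrix operating software, of no stated version, and the summary method, background correction and scaling are not given in the sources used here. They ran from 0.53 to 19112 with array medians of 118.33 to 129.58, and precision is limited by how few arrays there are: the median half-width of a 95% interval between groups of 3 was 0.222 log2 units. No arrays were identical. Control probe sets (64) and probe sets with several (932) or no (9160) symbols of the 45101 were left out.

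Signals became log2(signal + 16). Genes whose representative probe set was at or below the 40th percentile of probe set means (6.49) were left out. A limma 3.58.1 fit in R 4.3.3 (a mean per group for 8 groups, leaving 17 residual degrees of freedom; moderated with trend; two-sided; Benjamini-Hochberg over 12937 genes) gave 19 comparisons. The pipeline was tested on simulated data of independent genes without an outlying array. That test cannot show how an array like control replicate 4 affects the calls. Fold changes are of the first-named over the second-named group on the log2(signal + 16) scale, which understates changes of dim genes, and probe levels were not compared between genes.

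All 10 genes were followed in every comparison, and values are printed for those that passed or that a comparison turns on. Up to 6 called genes of the pathway lists by smallest p and the 3 genes most like each gene were named; partners named beyond these were chosen after their values were seen. The genes and lists were chosen with earlier results of these data known. The contrast over the 3 compounds and the fits without control replicate 4 for counts were added after the data were seen.

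Labels give no batch or pairing. Residuals of same-numbered arrays correlated at -0.813 to 0.781, and all pairs exceeded 0.1 in 5 of 16 comparisons: FTY against SEW, radiation+fTyS against fTyS and against radiation, fTyS against control and radiation against control. For these, values with the replicate number as a block are given where they change a call. Control replicate 4 is the only array of its number, so the block fit also sets it aside. Alternatives were quantile normalization, median centring, pseudocounts of 1 and 64, the filter removed or set at the 60th percentile, each other probe set or the mean of them all, eBayes without trend, array weights, muscle and adipocyte or endothelial covariates, fits of the compared arrays alone, and fits without 1 array.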

Additional observations from a re-analysis of the deposited data

Results flagged for a closer look

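In controls, the 1 group of 4 arrays and so the one examined for single outlying values, Apln had 10.83 log2 units on replicate 4, against 9.64 to 9.83 on the others, a gap of 0.835 of the whole range. Such a gap occurs by chance in about 1 of 20 groups, and the other 9 genes did not show one. That array also had the highest mean of p53 target genes of any unirradiated array (10.24 log2 units).

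The test of the interaction of radiation with a compound passed for 4 genes by their representative probe sets with all arrays. The interaction with SEW was 1.56 for Aplnr, 0.38 for Kdr, 0.60 for Ednrb and -0.43 for Fzd4 on the log2 scale (adjusted p = 0.0249, 0.0371, 0.000971 and 0.0285). For Ednrb it was 0.38 with fTyS and 0.38 with FTY (0.049 and 0.0217). Without control replicate 4, Kdr with SEW and Ednrb with fTyS did not pass. Aplnr probe set 1423037_at did not pass with SEW (0.0602). Fzd4 probe set 1419301_at had the opposite sign there, 0.57 (0.0533), and Ednrb probe set 1426314_at passed with no compound.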

How the results depend on the processing

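The counts of the 10 genes called moved by over 1.5 times under these settings. For radiation against control (2), median centring gave 1 and a fit of only the arrays compared 0. For radiation+fTyS against radiation (1), quantile normalization, median centring, no filter, eBayes without trend and only the arrays compared gave 0, the replicate block 2 and array weights 3. For radiation+SEW against radiation (1), median centring and the mean of all probe sets gave 0 and array weights 3. For radiation+fTyS against fTyS (1), the mean of all probe sets and only the arrays compared gave 0, the replicate block 4, the endothelial covariate 5 and array weights 6. For radiation+FTY against FTY (2), the mean of all probe sets and only the arrays compared gave 1. Array weights gave 1 in fTyS and FTY against control, 4 in fTyS against SEW, 2 in FTY against SEW and 4 in radiation+fTyS against radiation+FTY, where all arrays gave 0; the endothelial covariate gave 2 in FTY against control, and 1, like the muscle and adipocyte covariates, in fTyS against SEW and in radiation+fTyS against radiation+FTY, where the mean of all probe sets also gave 1. For the interaction with fTyS (1), quantile normalization, median centring, no filter, eBayes without trend, the replicate block, the muscle and adipocyte covariates and only the arrays compared gave 0, the endothelial covariate 2 and array weights 3. For that with SEW (4) the replicate block gave 2, and the other settings 3 to 5, and for that with FTY (1) quantile normalization, median centring, the mean of all probe sets and only the arrays compared gave 0. Under the same settings SEW against control (3) ran from 2 to 4, radiation+SEW against SEW (5) from 4 to 6 and the contrast over the 3 compounds (6) from 5 to 8. The cause was not tested. The fit of only the arrays compared has fewer residual degrees of freedom.

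Leaving out 1 array moved the counts between 1 and 4 for SEW against control, 1 and 2 for radiation against control, 0 and 1 for radiation+SEW against radiation, 0 and 2 for radiation+fTyS against radiation, 0 and 4 for radiation+fTyS against fTyS, 3 and 6 for radiation+SEW against SEW, 0 and 2 for radiation+FTY against FTY, 0 and 1 for fTyS against SEW, 0 and 1 for the interaction with fTyS, 1 and 4 for that with SEW and 0 and 1 for that with FTY.

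Signs reversed only with another probe set: for Fzd4, 1449416_at gave 0.085 in radiation+fTyS against fTyS, and 1419301_at gave 0.12 in radiation+SEW against SEW, 0.25 in radiation+FTY against FTY and 0.57 in the interaction with SEW. For Ednrb, 1423594_a_at and 1426314_at gave -0.11 and -0.078 in radiation+SEW against SEW and -0.10 and -0.027 over the 3 compounds, and 1426314_at gave -0.10 in the interaction with FTY. Of 33 differences followed for single genes, pseudocounts of 1 and 64 and the filter at the 60th percentile changed 0 calls. The replicate block, which also sets control replicate 4 aside, raised 6 past the threshold, and all 6 also passed without that array. It took 3 below the threshold. It changed no other call beside those given with the results, except SEW against control, where Aplnr passed (0.00471), radiation+SEW against SEW, where Tek passed (0.0194), and the interaction with SEW, where Kdr and Fzd4 were lost (0.0595 and 0.06). The numbers did not pair those arrays.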
